A study of Mus musculus with 112 samples.

Results

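Epiblast stem cells (EpiSCs) are pluripotent cell lines grown out of the epiblast, the layer of the early mouse embryo that forms all tissues of the body. The arrays described here compare EpiSC lines started from embryos that had begun gastrulation with EpiSC lines started from embryos that had not. The lines were chosen by the labels: arrays of RNA that had not been amplified, from the EpiSC lines that the study established from embryos of 1 strain at known stages, with starred sublines, thawed at another time, kept with their line. This gave 65 of the 112 arrays of the series, from 18 lines. The gastrula origin group held 39 arrays of 11 lines, namely 6 late midstreak lines (LMS1 to LMS6, E6.75 to E7.5), 2 early bud lines (EB1a and EB1b, E7.5 to E8.0) and 3 late bud lines (LB1 to LB3, E7.75 to E8.25). The pregastrula origin group held 26 arrays of 7 lines, namely 4 cavity lines (CAV1 to CAV4, E5.5 to E6.0) and 3 prestreak lines (PS3 to PS5, E6.0 to E6.5). E gives days of embryonic development. Per the labels, all lines were harvested at passages 10 to 20 by collagenase lift from a fibroblast layer, with no genetic change or treatment named for any of them. The same stages were also measured in 13 single dissected epiblasts of that strain, 9 of the gastrula stages and 4 of the pregastrula stages, whose RNA was amplified. Other arrays of the series held ES cells, iPS cells, embryonic fibroblasts (MEF), the line EpiSC9, 4 more epiblasts and amplified RNA of 4 lines.

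During gastrulation, epiblast cells pass through the primitive streak to become mesoderm and endoderm, while the cells that stay behind take on neural and caudal fates. Nodal, Wnt and FGF signals pattern this process, and the Hox and Cdx genes are switched on as the caudal body forms. EpiSCs hold the primed form of pluripotency, which depends on FGF and activin signals and is marked by Pou5f1 together with epiblast genes such as Fgf5 and Otx2. The comparison asks whether lines keep a record of the stage of the embryo they came from.

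The value of a gene is its log2 normalized intensity on Illumina bead arrays, so a difference of 1 is a doubling. The culture arrays of a line were averaged, and the line is the unit of all spreads and tests, because cultures of 1 line share its history. The labels say that cells were harvested in triplicate cultures, so the spread between cultures is not a spread between lines. Between 33.7% and 41.1% of probes were detected on the gastrula origin arrays, and between 35% and 40.3% on the pregastrula origin arrays. Detected means a detection p under 0.01. Of the primed markers, Pou5f1, Dnmt3b, Otx2, Fgf5 and Zic2 were detected on every array, and Sox3 on 23 gastrula origin and 23 pregastrula origin arrays. Dppa3, a marker of naive cells, was detected on none and Zfp42 on 1 array of each group. Klf2 and Klf4, also used as naive markers, were detected on every array. The naive markers Esrrb and Tbx3 were detected on 12 and 19 gastrula origin and 3 and 12 pregastrula origin arrays. Fibroblast genes were also present, since Col1a1, Dcn, Lum and Thy1 were detected on every array, although Postn was detected on none. Col1a2 and Col3a1 were detected on 29 and 37 gastrula origin and 16 and 26 pregastrula origin arrays. Afp, Ttr, Elf5, Esx1 and Ptprc, defining markers of visceral endoderm, trophoblast and blood, were detected on none, although other markers of these types were detected on some. Amn and Lyz2 were detected on 37 and 38 gastrula origin and 24 and 26 pregastrula origin arrays, and the trophoblast markers Krt7, Gata3 and Cdx2 on 19, 23 and 22 gastrula origin and 16, 11 and 14 pregastrula origin arrays. The endoderm markers Apoa1 and Hnf4a were detected on 17 and 18 gastrula origin and 18 and 13 pregastrula origin arrays, and Cd68 and Emcn, of blood and endothelium, on 24 and 9 gastrula origin and 19 and 12 pregastrula origin arrays.

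The labels of 2 lines could not be squared across preparations. The amplified arrays of 4 lines were set against the unamplified means of the same lines, by correlation of deviations from the mean of the 4 over 11055 genes. All 6 amplified arrays labelled CAV2 or LMS3 were most like the line of their label. All 3 amplified arrays labelled PS5 were most like the unamplified LB2 line, with r of 0.58, 0.55 and 0.59, and all 3 labelled LB2 were most like the unamplified PS5 line, with r of 0.32, 0.29 and 0.40. Their correlations with the line of their own label lay below 0. The Y-linked gene Eif2s3y averaged 9.87 on the unamplified arrays labelled PS5 and 4.31 on those labelled LB2, but 4.36 on the amplified arrays labelled PS5 and 8.56 on those labelled LB2. The data do not say which of the preparations carries the wrong names. The grouping follows the labels, and results are also given without both lines, which leaves 10 gastrula origin and 6 pregastrula origin lines. Of the epiblasts, 2 of the gastrula stages carry a description as cultured cells, and the count of genes called between epiblasts is also given without them.

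No gene passed the test for a difference between gastrula origin and pregastrula origin lines. Of 14339 genes tested by limma with Benjamini-Hochberg adjustment, 0% had an adjusted p under 0.05, and the smallest adjusted p was 0.998. At an unadjusted p under 0.05 there were 596 genes (4.16% of those tested), of which 236 (1.65%) were higher and 360 (2.51%) were lower in gastrula origin lines. The median difference over all genes was 0.00. The data did set limits: for 13783 genes (96.1%) the 95% interval of the difference lay within 1 log2 unit of no difference, and the median distance from an estimate to the end of its interval was 0.28. For the other 556 genes the interval reached beyond 1 log2 unit. Without lines PS5 and LB2, 0 of 14293 genes passed and 535 (3.74%) had an unadjusted p under 0.05.

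Only 12 genes had an estimated difference beyond 1 log2 unit in either direction. The 4 higher in gastrula origin lines were Pou6f1, Fgf5, LOC100048346 and Usp18, at 1.77, 1.27, 1.10 and 1.10. The 8 lower ones were Dbx1 at -1.32, Hoxb1 at -1.21, Eif2s3y at -1.17, Olig1 at -1.14, Spink1 at -1.11, LOC100046207 at -1.08, Sox21 at -1.04 and 1700048O20Rik at -1.02. Dbx1, Olig1 and Sox21 encode transcription factors of the developing nervous system, and Eif2s3y lies on the Y chromosome. None of the 12 passed the test.

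Fgf5, a secreted growth factor that marks the epiblast after implantation, had the lowest unadjusted p of the post-implantation epiblast list. The gastrula origin lines had 7.37, 9.90 and 10.35 (lowest, median and highest), against 6.86, 8.23 and 9.69 in the pregastrula origin lines. The groups overlapped: LMS5 at 7.37 lay below every pregastrula origin line but CAV1, and PS5 at 9.69 lay above several gastrula origin lines. By stage of origin, the mean was 7.94 for cavity, 8.74 for prestreak, 9.50 for late midstreak, 9.44 for early bud and 9.73 for late bud lines. The difference was 1.27 ± 0.38 (SE, 95% interval 0.47 to 2.07, unadjusted p = 0.00347, limma adjusted p = 0.998). Without PS5 and LB2 it was 1.45 ± 0.38.

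Pou6f1, which encodes a POU-domain transcription factor, had the largest estimated difference. Gastrula origin lines had 4.65, 7.04 and 9.07, and pregastrula origin lines had 4.48, 4.57 and 6.66 (lowest, median and highest). The gene was detected on 30 of 39 gastrula origin arrays and on 3 of 26 pregastrula origin arrays, the 3 being those of CAV4. Among the gastrula origin lines, LMS1 at 4.93, LMS4 at 4.65 and LB3 at 4.87 lay near the pregastrula origin median, while LB2 at 9.07 and LMS2 at 8.13 were highest. The cultures of a line lay close together, as in LB2 with 9.25, 8.89 and 9.08 and in CAV4 with 6.56, 6.73 and 6.70. The MEF arrays averaged 6.79, between the low and the high lines. The difference was 1.77 ± 0.53 (SE, 95% interval 0.66 to 2.88, limma adjusted p = 0.998). With cultures as units and the line as a random block, Pou6f1 was the 1 gene that passed, with a difference of 1.81 and an adjusted p of 0.0022. With culture number as a further replicate block its adjusted p was 0.00328. The fits on cultures apply 1 correlation between cultures of a line to all genes. Pou6f1 values lay close within a line and far apart between lines, so these p-values can be too small for it. The Pou6f1 call did not hold without the lines whose labels are crossed. Leaving out PS5 and LB2, the difference was 1.52 in the fit on cultures (limma adjusted p = 0.0774). In the fit on lines it was 1.46 ± 0.51. On the amplified arrays Pou6f1 averaged 10.29 under the label PS5 and 4.73 under the label LB2.

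**Figure D1:**
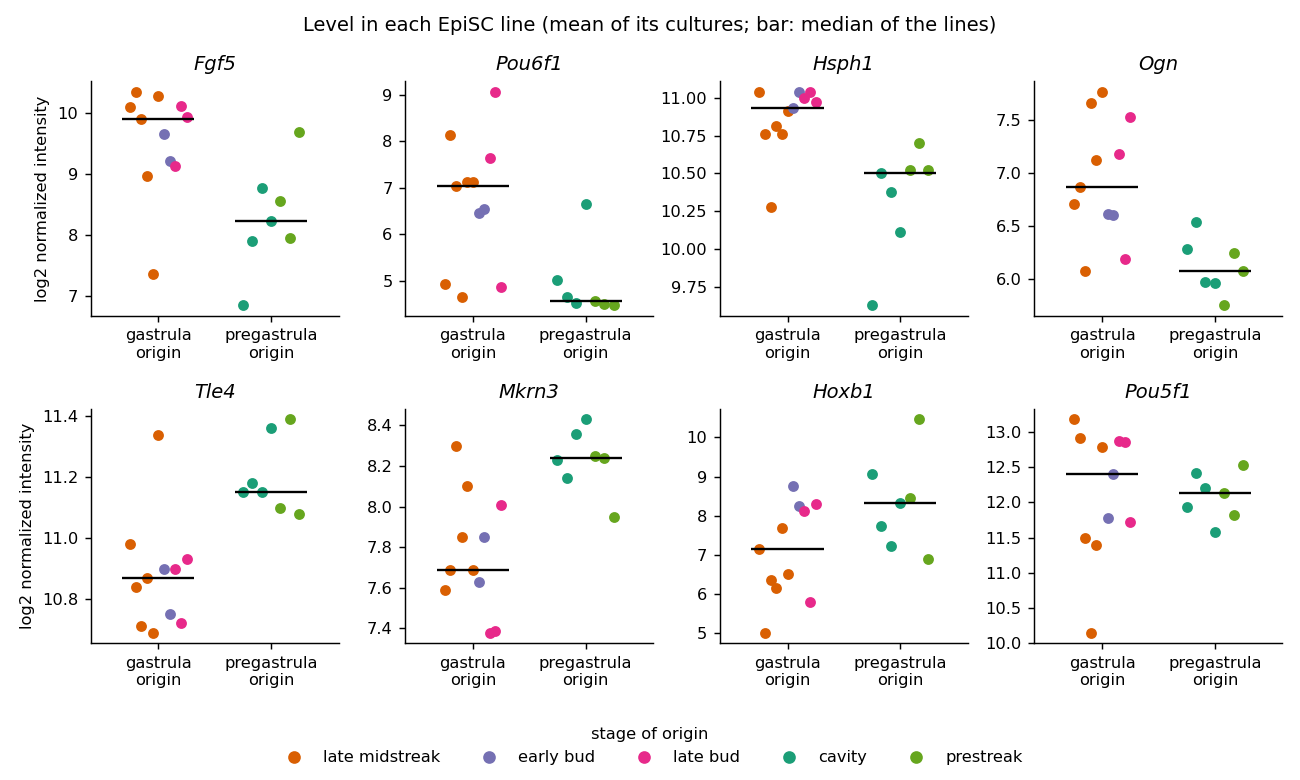
Level of 8 genes in each EpiSC line, as log2 normalized intensity on the vertical axis (each panel has its own range), with gastrula origin lines on the left and pregastrula origin lines on the right. Each point is a line (mean of its cultures), coloured by stage of origin, and the bar is the median of the lines. The groups overlap in all 8 panels, and in Pou6f1 the gastrula origin lines run between 4.65 and 9.07.

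Among the other genes with the lowest p was Hsph1. This gene, a chaperone of the HSP110 family, had 10.28, 10.93 and 11.04 in gastrula origin lines, against 9.63, 10.50 and 10.70 in pregastrula origin lines. All gastrula origin lines but LMS3 lay above every pregastrula origin line. The difference was 0.53 ± 0.13 (unadjusted p = 0.00063, adjusted p = 0.998), and 0.55 without PS5 and LB2. Chordc1, an HSP90 co-chaperone, differed by 0.35 ± 0.09, and Sqle, an enzyme of cholesterol synthesis, by 0.18 ± 0.05. Of the 14 tested members of the immediate early and heat shock list, Hsph1 among them, 10 had a negative difference, with a median of -0.06. With median scaling of the arrays 6 were negative and the median was 0.02.

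Ogn encodes osteoglycin, an extracellular matrix protein of connective tissue, and stood at 10.61 in the MEF arrays. It had 6.08, 6.87 and 7.77 in gastrula origin lines and 5.76, 6.08 and 6.54 in pregastrula origin lines, with LMS4, LMS6 and LB3 highest. The difference was 0.82 ± 0.22 (unadjusted p = 0.00131, adjusted p = 0.998), and 0.89 without PS5 and LB2. All 17 tested members of the fibroblast list also had a positive difference, with a median of 0.31 against 0.00 over all genes, and none passed the test. All 17 were also positive without PS5 and LB2, with a median of 0.34. The same held under each of 5 other scalings or covariates, with medians between 0.26 and 0.67. It did not hold within array set 3, where sets are arrays clustered on background probes. There Dcn and Col3a1 differed by -0.10 and -0.07, while Col1a1 kept its sign in all alternatives. The whole list was not followed within array sets. The summed level of the 18 genes of the list on the array ranged between 14155 and 41646 intensity units in gastrula origin lines and between 14579 and 29634 in pregastrula origin lines, against 119664 in MEF. Col1a1, a fibrillar collagen, had 7.70, 9.03 and 10.64 in gastrula origin lines and 7.68, 8.44 and 9.49 in pregastrula origin lines. The part that fibroblasts of the layer had in these values was not tested. In such bulk samples fewer cells of a type and less RNA per cell cannot be told apart.

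Genes with the lowest p on the other side differed by small amounts. Tle4, a Groucho-family corepressor, had 10.69, 10.87 and 11.34 in gastrula origin lines, against 11.08, 11.15 and 11.39 in pregastrula origin lines. LMS6 was the 1 gastrula origin line inside the pregastrula origin range, and the difference was -0.33 ± 0.08 (unadjusted p = 0.000884, adjusted p = 0.998). Mkrn3, an imprinted gene expressed from the paternal allele, had 7.38, 7.69 and 8.30 in gastrula origin lines and 7.95, 8.24 and 8.43 in pregastrula origin lines, with a difference of -0.46 ± 0.13. Erbin, an adaptor protein of epithelial cell junctions, Fnip1, a folliculin partner, and Armcx4 differed by -0.41, -0.47 and -0.41. AI987944 was the 1 gene of 14339 whose lines did not overlap, with 4.97, 5.04 and 5.27 in gastrula origin lines and 4.67, 4.83 and 4.96 in pregastrula origin lines. It was detected on 6 of 39 gastrula origin arrays and on none of the 26 pregastrula origin arrays, so it was not well above background in pregastrula origin lines and no fold is given. Without PS5 and LB2, the lines did not overlap for AI987944, Ggnbp2, LOC668573, Msi2 and Rpl31-ps20, none of which passed the test.

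Core pluripotency genes had differences near 0. Over the 11 genes of the list the median difference was 0.02 and none passed, while with passage as a covariate the median was 0.36. Pou5f1, the central factor of pluripotency, had 10.15, 12.40 and 13.18 in gastrula origin lines and 11.58, 12.13 and 12.53 in pregastrula origin lines. LMS4 was the lowest and LMS1 the highest of all lines, so the gastrula origin lines enclosed the pregastrula origin range on both sides. The difference was 0.06 ± 0.33. Its partners Nanog and Sox2 differed by 0.08 ± 0.21 and -0.12 ± 0.24, and Sall4, a zinc finger factor of the same network, by 0.02 ± 0.16. Of 16 genes of the post-implantation epiblast list, 9 had a positive difference, with a median of 0.12. Otx2, a homeodomain factor of the anterior epiblast, averaged 10.16 ± 0.70 in gastrula origin lines (SD, n = 11) and 9.58 ± 0.87 in pregastrula origin lines (n = 7), a difference of 0.57 ± 0.34. Sall2 and Sox3, transcription factors of the epiblast and early neural plate, differed by -0.33 ± 0.14 and -0.27 ± 0.13. Dnmt3b, the DNA methyltransferase of primed cells, differed by 0.13 ± 0.26.

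T was detected on every array of both groups and Eomes on 24 of 39 gastrula origin and 11 of 26 pregastrula origin arrays. T (Brachyury), the T-box factor of the primitive streak, had 7.66, 9.48 and 11.21 in gastrula origin lines and 7.87, 9.23 and 9.57 in pregastrula origin lines. LMS1 was highest and LMS5 lowest, both of late midstreak origin, and the difference was 0.51 ± 0.40. Eomes, a T-box factor of the streak and endoderm, had 4.50, 6.10 and 7.88 in gastrula origin lines and 4.92, 5.25 and 5.93 in pregastrula origin lines, a difference of 0.57 ± 0.37. Over the 13 tested genes of the primitive streak list, 8 had a positive difference, the median was 0.10 and none passed. The median was 0.06 without PS5 and LB2, 0.31 without PS4 and 0.39 with passage as a covariate. Shh and Foxa2, genes of the node and axial mesendoderm, were spread much more widely among gastrula origin lines. Shh had 5.20, 10.82 and 12.35 in gastrula origin lines and 8.92, 10.72 and 11.29 in pregastrula origin lines, with LMS1 lowest and LMS4 highest. Cxcr4, a chemokine receptor of definitive endoderm, averaged 7.19 ± 1.09 in gastrula origin lines and 8.09 ± 0.49 in pregastrula origin lines, with LMS1 and LB2 lowest, at 5.18 and 5.57. The difference was -0.90 ± 0.40 (unadjusted p = 0.0373), or -0.79 without PS5 and LB2. The list of anterior streak, node and definitive endoderm genes, to which these belong, had a median of -0.07 over 15 genes, but 0.15 without PS5 and LB2.

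The sign of the caudal and Hox genes as a list rested on 1 line, PS4, of prestreak origin. Of the 22 tested members of the caudal and Hox list, 19 had a negative difference, with a median of -0.21 against 0.00 over all genes, and none passed. The mean level of the list was 7.92 in PS4, while the other pregastrula origin lines lay between 5.36 and 5.89, and the median line stood at 5.83 in the gastrula origin group and at 5.76 in the pregastrula origin group. Without PS4, 4 of the 22 differences were negative and 18 were positive, with a median of 0.16. Without PS5 and LB2 the count was again 19 of 22, with a median of -0.28, and with passage as a covariate 15 of 22 were negative, with a median of -0.27. Their precision was low: the interval lay within 1 log2 unit for 5 of the 22. Hoxb1, a hindbrain Hox gene, had 5.02, 7.14 and 8.75 in gastrula origin lines, against 6.89, 8.33 and 10.46 in pregastrula origin lines. PS4 was the highest line and LMS2 the lowest, and the difference was -1.21 ± 0.53 (unadjusted p = 0.0349), or -1.31 without PS5 and LB2. Hoxa2 differed by -0.92 ± 0.40. Cdx2, a caudal-type homeobox factor, reached 10.59 in PS4, whereas no gastrula origin line exceeded 8.33, and its difference was -0.20 ± 0.74. Leaving out single lines, that of Cdx2 ran between -0.43 and 0.54, the positive end without PS4, and it was 0.73 with passage as a covariate. For the neuroectoderm list the median was -0.32, with a negative difference in 9 of 11 genes, and it was -0.38 without PS5 and LB2 and -0.34 without PS4. Hes5, a Notch target of neural progenitors, had 4.62, 5.76 and 7.68 in gastrula origin lines and 5.82, 6.56 and 7.70 in pregastrula origin lines, a difference of -0.99 ± 0.41.

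Signalling genes showed no called difference either. Nodal, the TGF-beta ligand that keeps the epiblast pluripotent and starts the streak, had 8.78, 10.19 and 11.08 in gastrula origin lines and 9.23, 9.86 and 10.24 in pregastrula origin lines, a difference of 0.32 ± 0.28. Its inhibitor Lefty1 differed by -0.26 ± 0.26 and its coreceptor Tdgf1 by 0.30 ± 0.45. The median was 0.09 over the 14 Nodal and activin genes, 0.01 over the 14 FGF and ERK genes, -0.05 over the 19 Wnt genes (0.07 without PS4) and -0.01 over the 13 BMP genes. Fgf8, a ligand of the streak, differed by 0.30 ± 0.44 and Wnt3a, a ligand of the caudal epiblast, by -0.39 ± 0.42. Among 13 genes of glycolysis and hypoxia 12 had a negative difference, with a median of -0.17, but with median scaling 8 had one, with a median of -0.07. Imprinted genes had a median of -0.11 over 14 genes, 9 of them negative, which was -0.06 without PS5 and LB2 and -0.33, with 11 negative, with passage as a covariate.

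**Figure D2:**
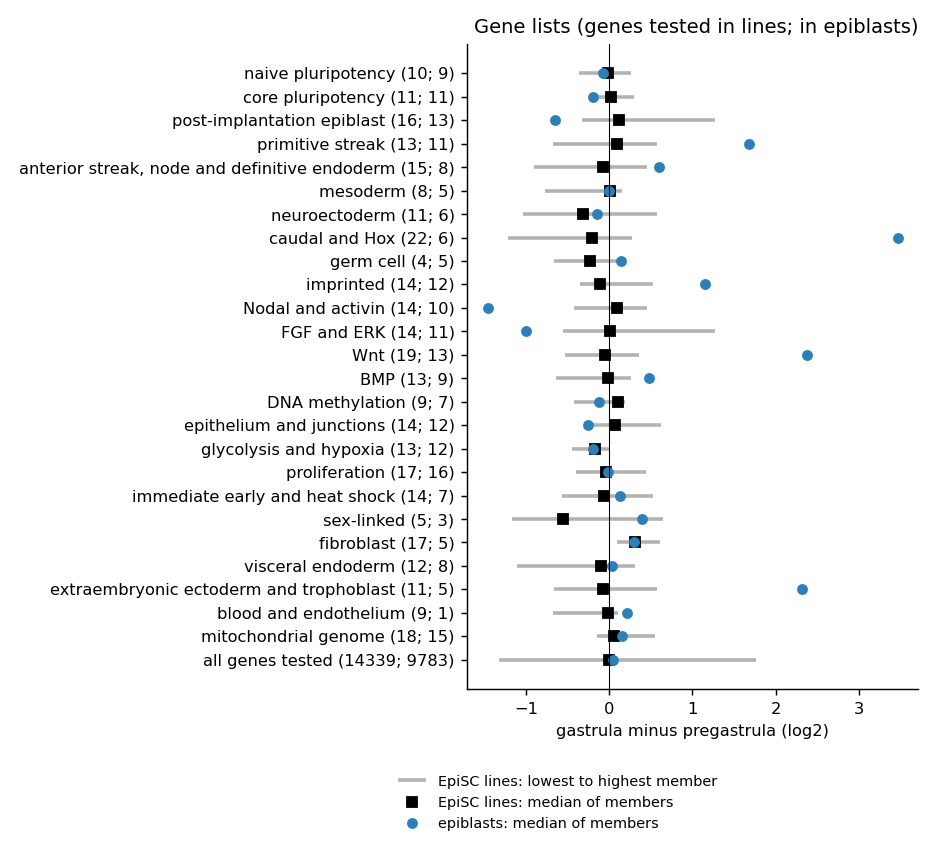
Differences between gastrula and pregastrula stages for 25 gene lists, in log2 units on the horizontal axis. Grey bars run between the lowest and the highest member in EpiSC lines, black squares mark the median of the members in lines and blue points the median in epiblasts, and the counts give the genes tested in lines and in epiblasts. The medians of the lines lie between -0.55 and 0.31, and those of the epiblasts between -1.46 and 3.47.

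Sex-linked genes varied between lines of both groups. Eif2s3y was detected on every array of 6 gastrula origin and 5 pregastrula origin lines, and on no array of 5 gastrula origin and 2 pregastrula origin lines. Xist, the RNA that coats the inactive X chromosome, had 4.54, 5.10 and 10.19 in gastrula origin lines and 4.42, 4.49 and 9.07 in pregastrula origin lines. Its highest values, in LMS3, CAV2 and LMS4, were in lines with no Eif2s3y signal. The balance of these lines between the groups moves with the differences of Eif2s3y and Ddx3y, which were -1.17 ± 1.16 and -0.88 ± 0.70. Leaving out PS5 and LB2, they were -0.63 and -0.44.

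When the gastrula origin lines were split, the late midstreak lines differed from the pregastrula origin lines at an unadjusted p under 0.05 in 503 genes (3.51%) and the bud lines in 1001 genes (6.98%). No gene passed the adjusted test in either, with smallest adjusted p-values of 0.999 and 0.297 by limma. Leaving out PS5 and LB2 gave 495 and 916 genes, again none past, and the smallest adjusted p for the bud lines was then 0.663. EB1a and EB1b were each other's nearest line (r = 0.9938), and the labels do not state whether they share an embryo. With them joined as 1 line, the bud comparison gave 637 genes at an unadjusted p under 0.05. None passed, and the smallest adjusted p was 0.621 (limma). In late midstreak lines, Ccn5, a matricellular protein, differed by 1.42 ± 0.36, and Msx3 and Olig3, homeodomain and basic helix-loop-helix factors of the dorsal neural tube, by -1.73 ± 0.47 and -1.33 ± 0.43. In the bud lines these 3 genes differed from pregastrula origin lines by 0.04, -0.05 and 0.20. Whether the stages differed from each other in these genes was not tested. In the bud lines, Hsph1 differed by 0.66 ± 0.15, Nsdhl, an enzyme of cholesterol synthesis, by 0.70 ± 0.18, and Pex13, a peroxisome import factor, by -0.67 ± 0.15. A linear trend over the 5 stages gave 855 genes (5.96%) at an unadjusted p under 0.05 and none past the adjusted test, with a smallest adjusted p of 0.42 (limma). It was shared by SCL0002975.1_346, named as in the files, with a slope of -0.29 per stage, and Hsph1, with a slope of 0.22 ± 0.04 per stage and stage means of 10.15 for cavity, 10.58 for prestreak, 10.76 for late midstreak, 10.99 for early bud and 11.00 for late bud lines. The smallest adjusted p of the trend was 0.998 once PS5 and LB2 were left out, and 0.892 with EB1a and EB1b as 1 line.

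Passage number moved with the groups. Gastrula origin lines were at a mean passage of 12.6 ± 2.28 (SD, n = 11) and pregastrula origin lines at 15.1 ± 1.80 (SD, n = 7), a difference of -2.51 (exact permutation test over lines, 2-sided p = 0.0323). Leaving out PS5 and LB2, the difference was -2.50 (exact permutation p = 0.0521). With passage as a covariate, 2102 genes (14.7%) had an unadjusted p under 0.05 for the period of origin, and 0 passed, with a smallest adjusted p of 0.187 (limma). In the same fit the passage term itself gave 3726 genes (26%) at an unadjusted p under 0.05 and 1 gene past the test. This was Esrp1, an epithelial splicing factor, with a slope of 0.33 log2 units per passage. The slope runs across lines of different passage and does not follow a line over its passages. With passage alone in the fit, 0 genes passed and 2221 (15.5%) had an unadjusted p under 0.05. LMS4 and LMS1, the lines least like the others, were at passages 10 and 16, the lowest and highest of the gastrula origin lines. Without both, the fit with period and passage gave 1595 genes (11.3%) for the period at an unadjusted p under 0.05, and 0 passed. The passage term was not tested without these lines. Several single differences were larger in the fit of all lines with both terms, though none passed. Pou5f1 differed by 0.67 (unadjusted p = 0.0332) with passage as a covariate, against 0.06 without it, and Dnmt3b by 0.65 (unadjusted p = 0.00913), against 0.13. Shh differed by -1.69, against -0.36, and Esrp1 by 1.11, against 0.29.

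Most of the variation lay between lines of the same period and between cultures of a line. Over the 65 arrays, the median share of a gene's sum of squares was 1.85% for period (1 degree of freedom), 55.7% for lines within a period (16 degrees of freedom) and 40.3% for cultures within a line (47 degrees of freedom). All pairs of lines correlated between 0.9056 and 0.9940 over the genes tested. The median r was 0.9745 for the 55 pairs within the gastrula origin group, 0.9851 for the 21 pairs within the pregastrula origin group and 0.9806 for the 77 pairs between the groups. The mean distance (1 - r) was 0.0233 between and 0.0269 within periods, a difference of -0.0036 (exact permutation test, 2-sided p = 0.0946 over 31824 assignments). The difference was -0.00399 without PS5 and LB2 (exact permutation p = 0.116). The nearest line was of the same period for 15 of 18 lines, and for 13 of 16 without those lines. The exceptions among the 18 were LMS3, LMS5 and LB3, whose nearest lines were PS5, PS3 and CAV3. EB1a and EB1b were each other's nearest line. The nearest line was of the same stage for 6 of 18 lines. These counts were not tested against those of shuffled labels.

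**Figure D3:**
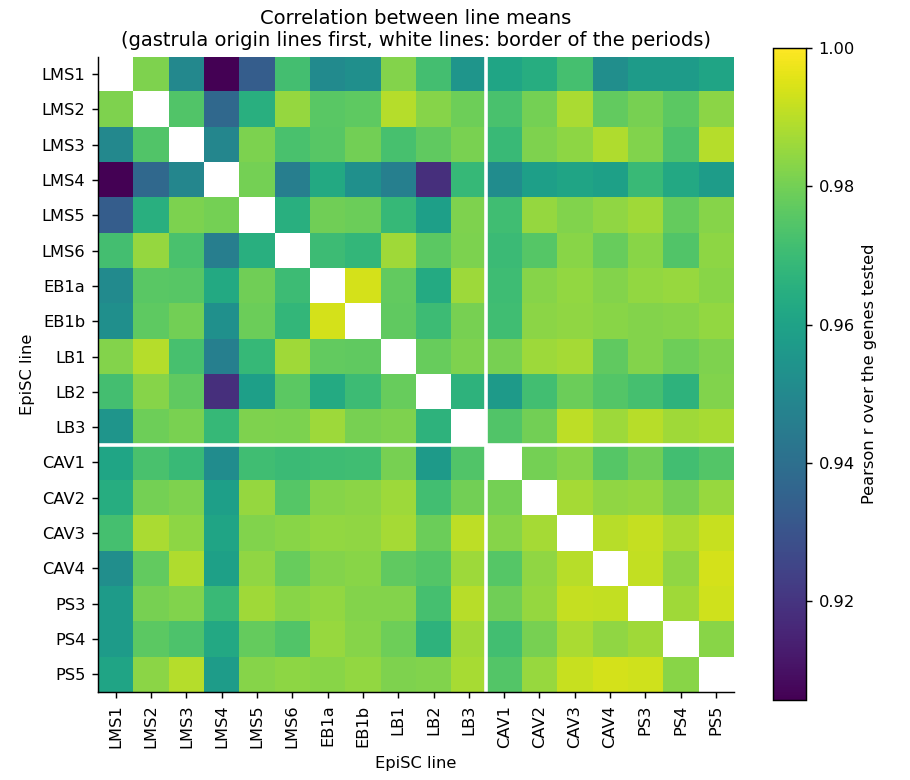
Pearson correlation between line means over 14339 genes, with gastrula origin lines first on both axes and white lines at the border between the periods. The lowest value, 0.9056, is between LMS1 and LMS4, and LMS4 and LMS1 form dark stripes against lines of both periods.

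Gastrula origin lines were more spread out among themselves than pregastrula origin lines. The median over genes of the SD among lines was 0.29 in gastrula origin lines and 0.21 in pregastrula origin lines, and 76.2% of genes had the higher SD among gastrula origin lines. The difference in spread was not tested. LMS4 and LMS1 had the lowest mean correlation with the other lines, at 0.9522 and 0.9577. On the first principal component, which held 35.5% of the variance, they took opposite ends at 62.39 and -59.27, while the pregastrula origin lines lay between -3.27 and 11.58. Without both of them the median SD of gastrula origin lines was 0.25 and the share of genes was 67.1%. When PS5 and LB2 were left out instead, the medians were 0.29 and 0.22 and the share was 72.4%.

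The epiblasts themselves differed strongly between the same stages. Of 10050 genes tested by limma, 1338 (13.3%) were higher and 807 (8.03%) were lower in gastrula than in pregastrula epiblasts. Without the 2 embryos described as cultured cells, 1355 genes passed in place of 2145, and without the cavity embryo Cav2 1130 did. The 4 pregastrula epiblasts lay in 1 array set, whereas the epiblasts of later stages were split over 2 sets, and 1430 genes passed with the array set as a block. Of the genes tested in both materials, 1320 were higher in gastrula epiblasts, with a median difference of 1.06 in epiblasts and -0.08 in lines. Another 742 were lower, with medians of -1.03 in epiblasts and 0.03 in lines. The line difference had the sign of the epiblast difference for 31% of the first set and 40.8% of the second, against 43.4% of all 9783 genes tested in both. Among the 1107 genes that passed in epiblasts with a difference beyond 1 log2 unit, the median size was 1.51 in epiblasts and 0.14 in lines. For 980 of these (88.5%), the 95% interval of the line difference lay within 1 log2 unit, and for 1103 the epiblast difference lay outside that interval. Over all 9783 genes the corresponding figures were 97.1% within 1 log2 unit and 6474 genes outside the interval. With PS5 and LB2 left out the interval lay within 1 log2 unit for 961 of 1107 (86.8%). These genes were chosen on the epiblast values, so these counts describe and do not test.

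The stage difference itself differed between lines and epiblasts in 2459 of 14673 genes (16.8%), by the interaction term of a limma fit over both materials. It did so in 2048 genes when PS5 and LB2 were left out. Of the 2459 genes, 118 were not detected on 3 or more line arrays. Epiblast RNA was amplified and line RNA was not, and the groups of epiblasts are small, so amplification and material cannot be told apart in the levels. With amplified RNA of LMS3 against CAV2 in place of the 18 lines, 166 genes passed, in a fit in which each of these lone lines is assumed to vary like the other groups.

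**Figure D4:**
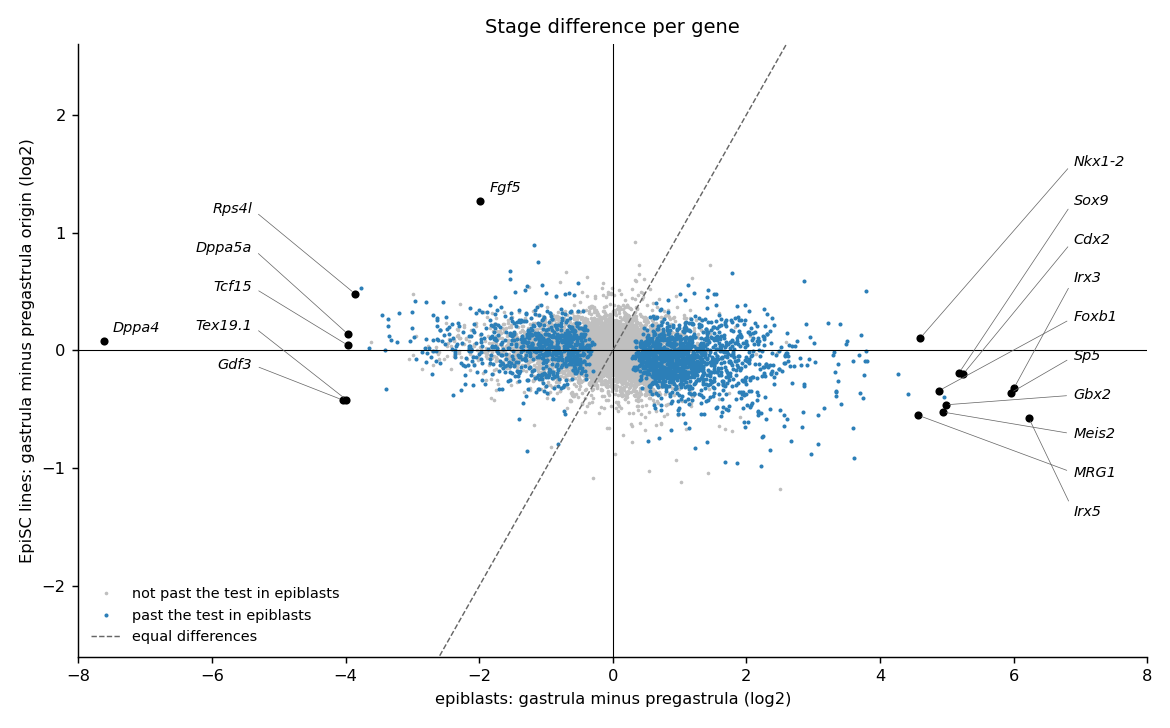
Difference between gastrula and pregastrula stages for each gene tested in both materials, in log2 units, with epiblasts on the horizontal and EpiSC lines on the vertical axis (drawn to different scales). Blue points passed the test in epiblasts, the dashed line marks equal differences, and black points are named genes. The named genes lie far from 0 in epiblasts, several of them against background levels in 1 group, while none but Fgf5 exceeds 1 in lines.

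Of the 20 genes named for the largest called differences between epiblasts, 16 were detected on 3 or more line arrays. Irx5, a homeodomain factor, averaged 10.91 ± 1.13 in gastrula epiblasts (SD, n = 9) and 4.68 ± 0.26 in pregastrula epiblasts (n = 4), where it was detected on no array, so it rose at least 21.4-fold (adjusted p = 2.66e-06, limma). In lines it averaged 7.80 ± 0.47 in the gastrula origin group and 8.37 ± 0.60 in the pregastrula origin group, and was detected on all 65 arrays. A bound of this kind sets the bright group against the lowest signal that is detected on each array of the dim group. Sp5, a Wnt target, rose at least 18.7-fold in gastrula epiblasts, Meis2 and Sox9, homeodomain and HMG-box factors, at least 14.5-fold and 13.2-fold, and Foxb1, a forkhead factor, at least 9.16-fold. In lines Sp5, Meis2 and Sox9 were detected on all 65 arrays, and their differences were -0.36 ± 0.42, -0.52 ± 0.24 and -0.19 ± 0.29. Irx3, Cdx2 and Gbx2, which were detected on all 9 gastrula epiblasts and on 1, 1 and 2 of 4 pregastrula epiblasts, rose by 6.00, 5.25 and 4.98 log2 units in gastrula epiblasts and differed by -0.32, -0.20 and -0.46 in lines. Nkx1-2, a homeodomain factor of the caudal epiblast, and MRG1, named as in the array annotation, rose at least 6.48-fold and 5.75-fold.

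The opposite set included the developmental pluripotency associated genes Dppa4, Dppa2 and Dppa5a. Dppa4, a chromatin protein of early embryos, averaged 5.35 ± 0.83 in gastrula epiblasts and 12.96 ± 0.13 in pregastrula epiblasts, and fell by 7.62 log2 units (adjusted p = 5.4e-08, limma). It was detected on 2 of 9 gastrula epiblasts. In lines it was detected on 6 of 39 gastrula origin and 0 of 26 pregastrula origin arrays. Dppa5a, which encodes an RNA-binding protein, averaged 9.80 ± 0.54 in gastrula epiblasts and 13.77 ± 0.11 in pregastrula epiblasts, but 5.23 ± 0.61 in gastrula origin lines and 5.09 ± 0.20 in pregastrula origin lines. Dppa5a was detected on 24 of the 65 line arrays, so its line levels lie near background. Gdf3, a TGF-beta ligand, fell by 4.04 log2 units in gastrula epiblasts, Tex19.1, a germ line gene, fell by 3.99 and Tcf15, a basic helix-loop-helix factor, fell by 3.96, against differences of -0.42, -0.42 and 0.04 in lines. They were detected on 3, 2 and 3 of 9 gastrula epiblasts, so part of each fall is set against background levels. Gpat2 and Dppa2 were detected on all 4 pregastrula epiblasts but on no gastrula epiblast and no line array, a fall of at least 7.05-fold and 4.20-fold between epiblasts. LOC665753 and Dmrtc1c1 likewise fell at least 3.08-fold and 3.01-fold. Rps4l, a ribosomal protein gene, fell by 3.86 log2 units (detected on 3 of 9 gastrula epiblasts), with an adjusted p of 0.0196 that was over 0.05 in 6 alternative settings.

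**Figure D5:**
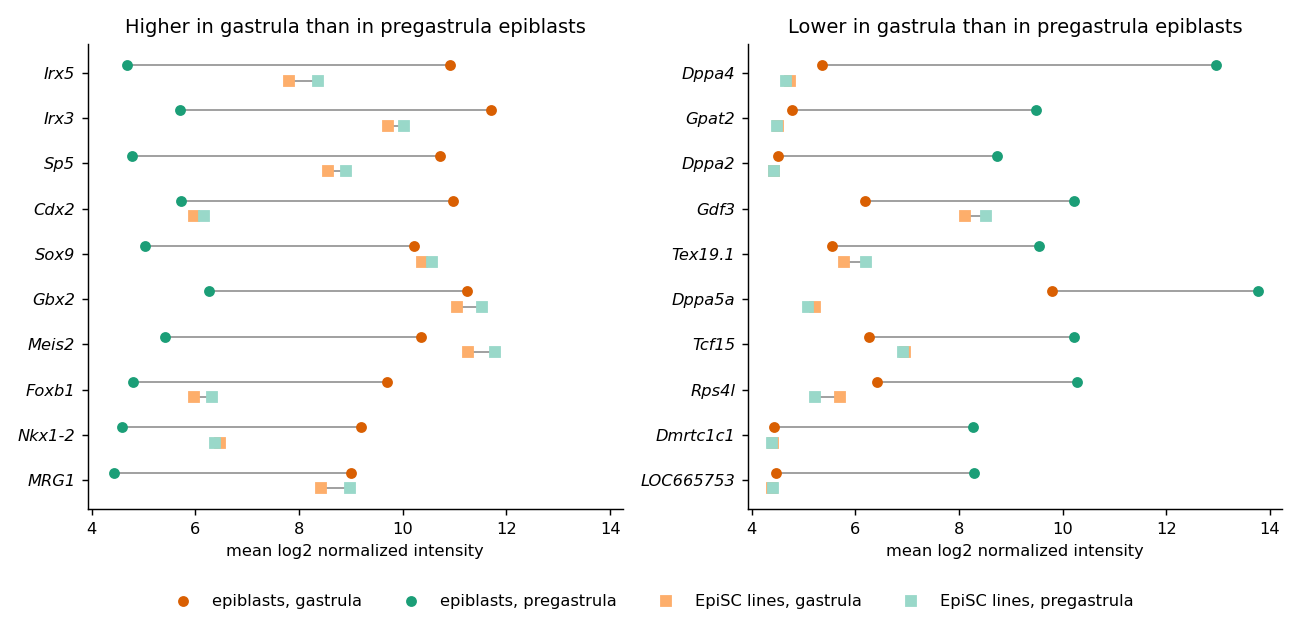
Mean log2 normalized intensity of the 20 genes with the largest called stage difference in epiblasts, higher on the left and lower on the right. Circles are epiblasts and squares are EpiSC lines, gastrula in orange and pregastrula in green. The epiblast circles of each gene are far apart, although the lower circle is a background level in 7 genes on the left and 4 on the right, while the squares of the lines lie close together. Gpat2, Dppa2, Dmrtc1c1 and LOC665753 were detected on no line array and Dppa4 on 6, so their squares lie at or near background.

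Signalling genes changed widely in epiblasts, whereas none passed between lines. Of the Wnt list 9 of 13 tested genes rose in gastrula epiblasts and 0 fell, and of the caudal and Hox list 4 of 6 rose. Of the Nodal and activin list 5 of 10 fell and 0 rose, and of the FGF and ERK list 6 of 11 fell and 2 rose. The share called among all genes was 13.3% higher and 8.03% lower. T was detected on 8 of 9 gastrula epiblasts and on no pregastrula epiblast, a rise of at least 4.62-fold, while the lines of both origins averaged 9.59 ± 1.04 (gastrula) and 9.08 ± 0.59 (pregastrula). Wnt3a, likewise detected on 8 of 9 gastrula epiblasts and on no pregastrula epiblast, rose at least 7.68-fold. Nodal averaged 8.60 ± 1.37 in gastrula epiblasts and 11.81 ± 0.25 in pregastrula epiblasts and fell by 3.20 log2 units (detected on 8 of 9 gastrula epiblasts), whereas the difference between lines was 0.32, and the difference of the differences was 3.52 (adjusted p = 0.000259, limma interaction). Tdgf1 and Fgf8, detected on 2 and 5 of 9 gastrula epiblasts, fell by 3.45 and 2.68 log2 units there. Fgf5 ran the other way from the lines: it averaged 9.91 ± 0.91 in gastrula epiblasts and 11.89 ± 0.17 in pregastrula epiblasts, a fall of 1.98 log2 units (adjusted p = 0.0041), and the interaction was 3.25 (adjusted p = 0.000304, limma). Ccnd2, a G1 cyclin, averaged 11.35 ± 0.51 in gastrula epiblasts and 7.61 ± 0.48 in pregastrula epiblasts and rose by 3.74 log2 units, while the lines averaged 11.38 ± 0.32 in the gastrula origin group and 11.78 ± 0.24 in the pregastrula origin group. Grb10, an imprinted growth regulator, rose by 1.13 log2 units in gastrula epiblasts and differed by -0.07 ± 0.08 in lines.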

How the data were processed

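The authors deposited bead array intensity values with a detection p-value per probe, and a table of normalized log2 values. The submitters' processing notes name BeadStudio, and its version, the array type and the genome build are not given in the sources used here. The deposited intensity values of 112 arrays (45281 probes) were corrected and quantile normalized with neqc (offset 16, background from the deposited detection p-values) in limma 3.58.1, R 4.3.3, and read with data.table (version 1.17.8). The deposited log2 values (31646 probes, column medians 6.87 to 6.94) served as an alternative; 3 columns of LB2 cultures matched another LB2 culture best.

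The probe with the highest mean stood for each of 28888 genes, and the probes of 9740 genes that have several can disagree. Of the gene names, 15991 are current symbols, 3940 were updated from synonyms and 8957 are kept as in the files. A gene was tested if detected (p under 0.01) on 3 or more arrays of a comparison. Arrays were averaged to lines, with starred sublines (12 arrays of LMS2*, LB1*, CAV2* and CAV3*) in their line. Tests were limma's lmFit and eBayes with a trend, 2-sided, with Benjamini-Hochberg adjustment and a limit of 0.05. Intervals are 95%. The number of lines limits the precision.

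Named genes are the 12 with the lowest p in each direction of each line comparison, since none passed, in epiblasts the 10 called genes with the largest change in each direction, provided that each array of the higher group detected them, and members of the gene lists. The lines, lists and tests were chosen with earlier results of these data known. Culture numbers do not pair arrays: the median r of deviations was 0.002 between same-numbered cultures of different lines and -0.003 between others. Array sets clustered on background probes stood in for batches, since the labels name none. The script was checked on simulated data. Alternatives covered background correction, scaling, filters, sublines, passage, array sets, units and lines left out. Those that leave out PS5 and LB2 or LMS1 and LMS4, use amplified RNA of lines, leave out PS4 for the gene lists, block on the embryos' array set or rescale the lists were chosen after seeing the data.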

Additional observations from a re-analysis of the deposited data

Results flagged for a closer look

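Of 196 checks for a single line standing far from the others of its group (49 gene values and list means in 4 groups of lines), 20 stood out, and chance gives about 1 in 20. Among pregastrula origin lines, PS4 accounted for the list means of the primitive streak at 7.82, caudal and Hox genes at 7.92, Wnt genes at 7.60 and visceral endoderm at 5.80. In that group CAV4 also stood out in Pou6f1 at 6.66, CAV1 in Fnip1 at 10.37 and PS5 in Rpl31-ps20 at 13.71. Among the cavity lines alone, CAV4 stood out in Tle4 at 11.36, the proliferation list at 10.17 and the blood and endothelium list at 5.31. CAV1 did so there in Ggnbp2 at 11.79. Among late midstreak lines these were LMS3 in Hsph1 at 10.28, LMS2 in the Nodal and activin list at 9.37 and LMS6 in the blood and endothelium list at 5.65. Among bud lines they were LB2 in AI987944 at 5.27 and in the neuroectoderm list at 6.30, EB1a in Chordc1 at 10.98, LB1 in the naive pluripotency list at 5.73 and the proliferation list at 10.53, and LB3 in the visceral endoderm list at 6.26.

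The stage difference of lines minus that of epiblasts passed the limma interaction test in 2459 genes, the 20 named epiblast genes among them. For the genes that were higher in gastrula epiblasts it was -6.80 for Irx5, -6.33 for Irx3, -6.32 for Sp5, -5.45 for Cdx2, -5.37 for Sox9, -5.44 for Gbx2, -5.46 for Meis2, -5.22 for Foxb1, -4.50 for Nkx1-2 and -5.13 for MRG1. For those that were lower it was 7.70 for Dppa4, 4.72 for Gpat2, 4.24 for Dppa2, 3.62 for Gdf3, 3.57 for Tex19.1, 4.11 for Dppa5a, 4.01 for Tcf15, 4.34 for Rps4l, 3.85 for Dmrtc1c1 and 3.79 for LOC665753. Irx5, Sp5, Sox9, Meis2, Foxb1, Nkx1-2 and MRG1 were not well above background in any pregastrula epiblast, so their values are set against background levels and give no bound. Irx3 and Cdx2 were detected on 1 and Gbx2 on 2 of 4 pregastrula epiblasts, and Dppa4, Gdf3, Tex19.1, Tcf15 and Rps4l on 2 or 3 of 9 gastrula epiblasts. Gpat2, Dppa2, Dmrtc1c1 and LOC665753 were not well above background on any line array, nor in any gastrula epiblast. The 20 named genes were chosen for large differences on the same epiblast arrays that enter the interaction. That they passed it therefore describes and does not test.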

How the results depend on the processing

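No gene passed the line comparison under the 42 alternatives except Pou6f1, the 1 gene past the test with cultures as units (adjusted p = 0.0022), with array sets as a further block (0.00268) and with culture number as replicate block (0.00328); the block changed no other call. The fits on cultures apply 1 correlation between cultures of a line to all genes, so their p-values for Pou6f1 can be too small. Leaving out any single line gave 0 genes past, also for late midstreak lines, bud lines and the trend. At an unadjusted p under 0.05 the main comparison then gave 406 to 918 genes. The late midstreak lines gave 332 to 820, the bud lines 625 to 1221 and the trend 583 to 1097. Pou6f1 ranged between 0.81 and 2.51, with 0.82 from the deposited values, and Fgf5 between 0.56 and 1.71; both kept their sign. Of 59 genes followed over these alternatives, 26 changed sign in at least 1, Pou5f1, Utf1 and Cdx2 most often. Within array set 1 the difference of distances turned to 0.00352 (exact permutation p = 0.411), and the cause was not tested. Without PS4 the caudal and Hox list turned to a median of 0.16. With passage as a covariate the interval lay within 1 log2 unit for 12946 of 14339 genes (90.3%). The epiblast count of 2145 was 1430 with the embryos' array set as a block, 1251 with late streak and no bud embryos added, 1355 without the 2 embryos described as cultured cells, and 1130 to 2915 without single embryos, lowest without Cav2, and 1319 without PS2. The interaction count of 2459 was 1329 with the added embryos, 65 with amplified RNA of 4 lines, 166 with that of CAV2 and LMS3, for both of which fewer lines enter, and 1657 to 2340 without single pregastrula embryos. With amplified RNA or the deposited values, 17 of the named gene interactions did not pass. Depth is that of the arrays. In the main fit, 556 of the 14339 genes tested had an interval reaching beyond 1 log2 unit and could hide such a difference. With passage as a covariate more genes could.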

Other observations

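Igf2, a fetal growth factor, averaged 13.58 ± 0.58 in gastrula origin lines (SD, n = 11), 13.77 ± 0.25 in pregastrula origin lines (n = 7) and 14.10 in MEF, against 10.26 ± 1.03 in gastrula epiblasts (n = 9) and 8.70 ± 0.38 in pregastrula epiblasts (n = 4). Epiblast RNA was amplified and line and MEF RNA was not, so these levels are not compared across materials. Peg3, an imprinted zinc finger gene, rose by 2.24 log2 units in gastrula epiblasts and differed by 0.12 ± 0.32 in lines. Lefty2, a Nodal inhibitor, reached 11.57 in LMS2, while the pregastrula origin lines lay between 5.61 and 9.04.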
